A study of Mus musculus with 31 samples.

Results

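The average difference between Brd1+/- and WT mice was examined in caudate putamen (CPu) across both treatments, by fitting every library of the series together with treatment as a covariate. All 31 libraries of the 31 in the series entered, 16 from WT and 15 from Brd1+/- mice, and 25394 of 52636 gene identifiers passed the filter on low values and were tested. Each library came from a frozen punch of the CPu, the dorsal striatum, of 1 mouse labelled female. The groups were WT administered vehicle (n = 8), Brd1+/- administered vehicle (n = 7), WT administered imipramine (IMN) at 10 mg/kg (n = 8) and Brd1+/- administered IMN at 10 mg/kg (n = 8). IMN is a tricyclic antidepressant that slows reuptake of noradrenaline and serotonin. Mice were 8 to 11 weeks old, of the strain C57BL/6NTac-Brd1tm1.2Arte/AborgMmucd (C57BL/6NTac-Brd1 in the labels), and WT and Brd1+/- mice were litter-matched. Every mouse, WT included, had been injected on both days of testing and had completed the tail suspension, open field and forced swim tests, and was sacrificed 1 h after the last of these, so no group represents an undisturbed brain. The deletion is constitutive and not restricted to the CPu. Expression is given as TPM, a transcript abundance scaled for gene length and to the same sum in each library, so that levels can be compared between genes. The library labelled WT vehicle mouse 7 went against its label, with a summed level of 26.8 TPM for 4 Y-linked genes where the highest of the other mice had 0.188 TPM. It was kept in its labelled group, and without it 1925 genes had p under 0.01 for genotype, 1 gene passed an FDR of 5%, and the Brd1 log2 fold change was −0.64. Of the genes named below with p under 0.01, Hdac9, Thra, Nr2c1, Dusp1, Gabra3, Hsd17b7, Dbp, Uqcrfs1, Ndufa2, Rps28, Rpl37a, Pkdrej, Fezf2 and Neurod1 no longer had it without this library, and kept their sign.

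BRD1, also called BRPF2, is a bromodomain and PHD finger protein that reads modified histones and holds MYST acetyltransferases, chiefly KAT7 (HBO1), on chromatin together with the small subunits ING4 or ING5 and MEAF6. These complexes acetylate histone H3 and are associated with transcriptional activation. BRPF1 and BRPF3 are the related scaffolds, and the JADE proteins compete for KAT7. Brd1 (ENSMUSG00000022387) lies on the minus strand at chr15:88687034-88734233 of GRCm38. The allele lacks the part of the gene between loxP sites around exons 3 to 5. In the coding transcript Brd1-203 the start codon is in exon 2, and the exons numbered 3, 4 and 5 hold 157, 132 and 129 coding bases. Their sum of 418 bases leaves a remainder of 1 when divided by 3, and makes up 8.11% of the 5152 bases of the transcript. That the numbering used for the allele is that of Brd1-203 was not tested. The 3 exons are shown because they are what distinguishes the genotypes, read on the sense strand from GENCODE M21 transcripts. They lie at chr15:88716906-88717062, chr15:88713886-88714017 and chr15:88713298-88713426, and lower case is used throughout since no part is singled out.
Brd1 exon 3: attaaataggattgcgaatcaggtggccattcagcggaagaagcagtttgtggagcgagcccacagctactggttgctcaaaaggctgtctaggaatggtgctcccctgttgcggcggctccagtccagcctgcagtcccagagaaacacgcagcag
Brd1 exon 4: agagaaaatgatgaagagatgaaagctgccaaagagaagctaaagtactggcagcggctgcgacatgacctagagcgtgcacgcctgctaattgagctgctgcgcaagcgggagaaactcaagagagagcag
Brd1 exon 5: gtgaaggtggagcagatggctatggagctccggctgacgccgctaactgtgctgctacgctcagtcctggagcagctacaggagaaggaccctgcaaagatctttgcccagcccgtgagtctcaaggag
TPM of the whole gene also counts reads outside these exons, including those of any transcript made from the deleted allele.

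Brd1 mRNA was lower in Brd1+/- mice. Brd1 was at 18.3 TPM in the lowest vehicle administered WT mouse, 23.0 at the median and 26.9 in the highest, and at 11.1, 13.1 and 16 TPM in their Brd1+/- counterparts. With IMN it was at 14.6, 21.0 and 22.5 TPM in WT and 11.3, 12.9 and 13.8 TPM in Brd1+/-. Within each treatment the lowest WT mouse lay above the highest Brd1+/- mouse, and over all mice the IMN administered WT mouse at 14.6 TPM lay below 3 of the Brd1+/- mice, so that 12 of 15 Brd1+/- mice were below every WT mouse. Mean levels were 21.2 ± 3.05 TPM (SD, n = 16) for WT mice, and for Brd1+/- mice 13.0 ± 1.55 TPM (SD, n = 15), or 61.5% of the former. The fold change on the log2(TPM + 1) scale was −0.65 (SE 0.07, limma, adjusted p = 7.63e-07), and its sizes within vehicle and within IMN, −0.71 and −0.60, were not separated by the interaction term (limma, adjusted p = 0.681). When genotype was permuted within each treatment, the observed labels gave the most extreme of 82818450 differences (exact permutation test, two-sided, p = 1.21e-08, the smallest that these groups can give). Brd1 was the 1 gene of 25394 (0.00394%) whose genotype groups did not overlap in either treatment. Under vehicle alone 65 genes were lower without overlap and 4 higher (0.272% of genes), under IMN alone 3 were lower and 0 higher (0.0118%), and across all mice together 0 genes separated the genotypes.

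**Figure D1:**
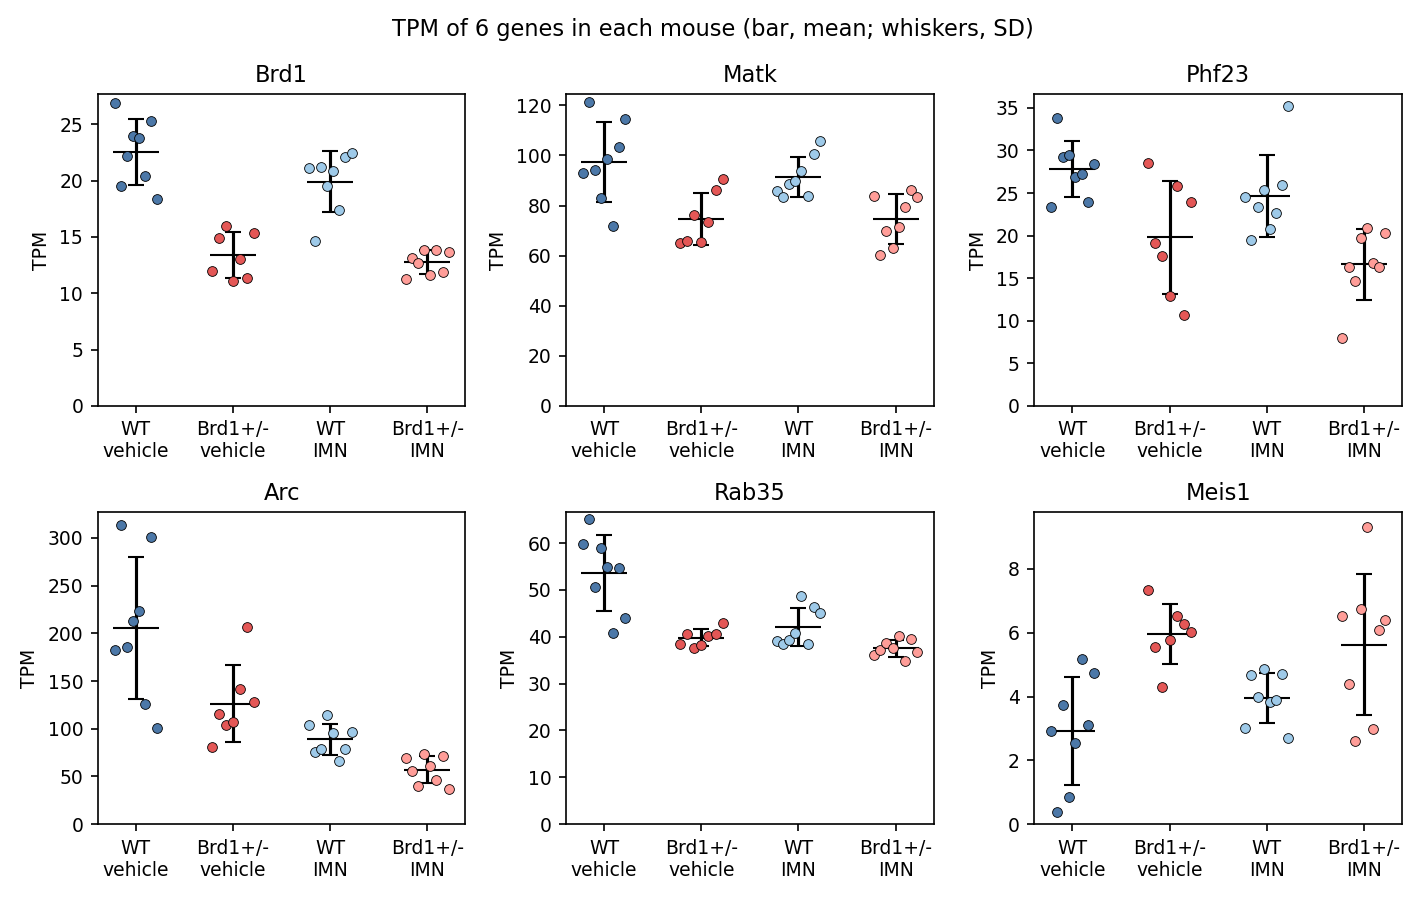
TPM (y axis) of Brd1, Matk, Phf23, Arc, Rab35 and Meis1 in each mouse (points) of the 4 groups, with mean (bar) and SD (whiskers). Brd1 did not overlap between genotypes within either treatment, whereas the other 5 genes did overlap in at least 1 of them.

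The partners of BRD1 were not called. Of 12 genes for acetyltransferase complexes with BRD1 or its relatives, 1 (Brd1 itself) passed p under 0.01, against 10.1% of all genes tested. Fold changes of the other 11 ran from −0.19 for Meaf6 (limma, adjusted p = 0.16) to 0.11 for Ing4, which encodes a subunit that binds methylated histone H3. Kat7, the main catalytic partner, had a log2 fold change of −0.06 (SE 0.05), and its homologs Kat6a and Kat6b had −0.05 and −0.04. Brpf1, a paralog of Brd1, had −0.15 (limma, adjusted p = 0.185). The log2 fold change of Ing4 was −0.17 under vehicle and 0.37 under IMN (limma interaction, adjusted p = 0.308). The median over the 12 genes was −0.05, beside −0.07 over all genes, and 0.06 after median-of-ratios scaling, where the values of Kat7, Kat6a and Kat6b also turned positive.

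Across all genes most differences were small and negative. At p under 0.01, 2566 of 25394 genes (10.1%) differed by genotype, 2369 of them lower (9.33%) and 197 higher (0.776%) in Brd1+/- mice. At an FDR of 5% only Brd1 was called in this fit, whereas 2604 genes passed an FDR of 10%, and the next adjusted p after Brd1 was 0.0625. The call at 5% changed with the fit and with single mice. It covered 21 genes when those with a mean of at least 1 TPM were tested, 419 with sample quality weights and 1505 with 4 group means. With all other settings kept, it covered 2653 genes without WT vehicle mouse 8, 1978 without WT vehicle mouse 6, 1031 without WT IMN mouse 2, 535 without Brd1+/- IMN mouse 3, 34 without WT IMN mouse 4, 15 without Brd1+/- IMN mouse 7, and 2 without WT IMN mouse 3 or 6. Below, fell and rose are used of genes with p under 0.01 in the fit of all mice, and named genes with that call other than Brd1 had adjusted p from 0.0625 to 0.0986 (limma). Log2 fold changes were below 0 for 71.9% of genes, with a median of −0.07. Median-of-ratios scaling, which brings that median to 0.00, left 1431 genes (5.64%) at p under 0.01, with 849 lower and 582 higher, so that the share of lower genes among them was 59.3% in place of 92.3%. Of the named genes with p under 0.01, 29 no longer had it after this scaling, with a smaller change of the same sign. They were Gm9836 (−0.10 in place of −0.21), Dnajb11 (−0.13), Prkaca (−0.12), Hdac5 (−0.15), Ddit3, Cox6c, Dnajc3, Cerk, Hdac8, Nsdhl, Npy, Pmvk, Sst, Uqcrfs1, Egr3, Pkdrej, Dusp1, Hsd17b7, Thra, Nr2c1, Fezf2, Rps28, Ndufa2, Rpl11, Gabra3, Hdac9, Rpl37a, Neurod1 and Rorb. TPM as deposited carries no scaling between mice beyond the fixed sum, of which the 13 protein genes of the mitochondrial genome took 22.9% ± 3.32 (SD) in WT vehicle, 28.1% ± 1.42 in Brd1+/- vehicle, 27.5% ± 1.98 in WT IMN and 28.7% ± 1.16 in Brd1+/- IMN mice.

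Markers of cortical and of striatal neurons varied widely among WT vehicle mice. The mean log2(TPM + 1) of 10 markers of cortical excitatory neurons (among them Fezf2, Neurod6, Tbr1 and Slc17a7) was 0.84 in the lowest, 5.08 at the median and 5.50 in the highest vehicle administered WT mouse, and 1.18, 2.40 and 2.97 in their Brd1+/- counterparts. With IMN it was 0.82, 1.85 and 4.49 in WT, with 2.26 at the median and 3.33 in the highest Brd1+/- mouse. The 10 markers of striatal medium spiny neurons, the principal cells of the CPu, ranged from 3.20 to 9.16 with a median of 7.80 in WT vehicle mice and from 8.87 to 9.10 in Brd1+/- vehicle mice. Pooled over treatments, the cortical score differed by −0.95 (exact permutation test of genotype within treatment, p = 0.0723, adjusted p = 0.163 over 9 lists) and the striatal score by 0.84 (exact permutation test, p = 0.0202, adjusted p = 0.115), or by 0.96 after median-of-ratios scaling (exact permutation test, adjusted p = 0.0294). The cortical difference was −1.81 under vehicle and −0.09 under IMN. The striatal difference was 1.67 under vehicle and 0.01 under IMN, or 1.85 and 0.06 after median-of-ratios scaling. All 10 cortical markers had negative log2 fold changes, as had 71.9% of all genes. Of the 10, 3 passed p under 0.01 (30%, beside 10.1% of all genes), Fezf2 at −1.26, Neurod1 at −0.67 and Rorb at −0.28, and 0 after median-of-ratios scaling. All 10 striatal markers had positive log2 fold changes with 0 called. In these bulk samples fewer cells of a type and less RNA per cell cannot be told apart. The part of these markers in the differences described here was not tested. There were 8 WT mice, 6 administered vehicle and 2 administered IMN, that scored 3.97 or more for cortical markers, above every Brd1+/- mouse. With them left out, which leaves 2 WT vehicle and 6 WT IMN mice, 250 of 24285 genes (1.03%) had p under 0.01, 110 lower and 140 higher, and the FDR of 5% was met by Brd1 and by Mir124a-3, a microRNA gene at a mean of 0.685 TPM in WT, which was lower in Brd1+/- mice (−0.93, limma, adjusted p = 0.0317). Mouse 8, among the WT vehicle mice left in this fit, stood apart from its group for Mir124a-3, at 2.57 TPM. With the 8 WT mice kept and each mouse left out in turn, Mir124a-3 was at −0.46 to −0.33 and never had p under 0.01 (limma, p from 0.0104 to 0.0409). Only WT mice were left out by score, and in this fit 3 marker lists differed the other way. The cortical list had a median of 0.80 with 1 of 10 genes negative, and the striatal list −0.13 with all 10 negative. The oligodendrocyte list had a median of 0.26 with 0 of 8 negative, so the genotypes were not matched in these markers. This fit shares its mice with that of all mice, so the values that follow are a description and not a second test. Of the 2499 genes called in all mice and tested again, 48 kept their p under 0.01, and of the 84 named genes with that call 9 kept it. The median of those lower in all mice went from −0.29 to −0.04, and that of those higher from 0.32 to 0.13.

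**Figure D2:**
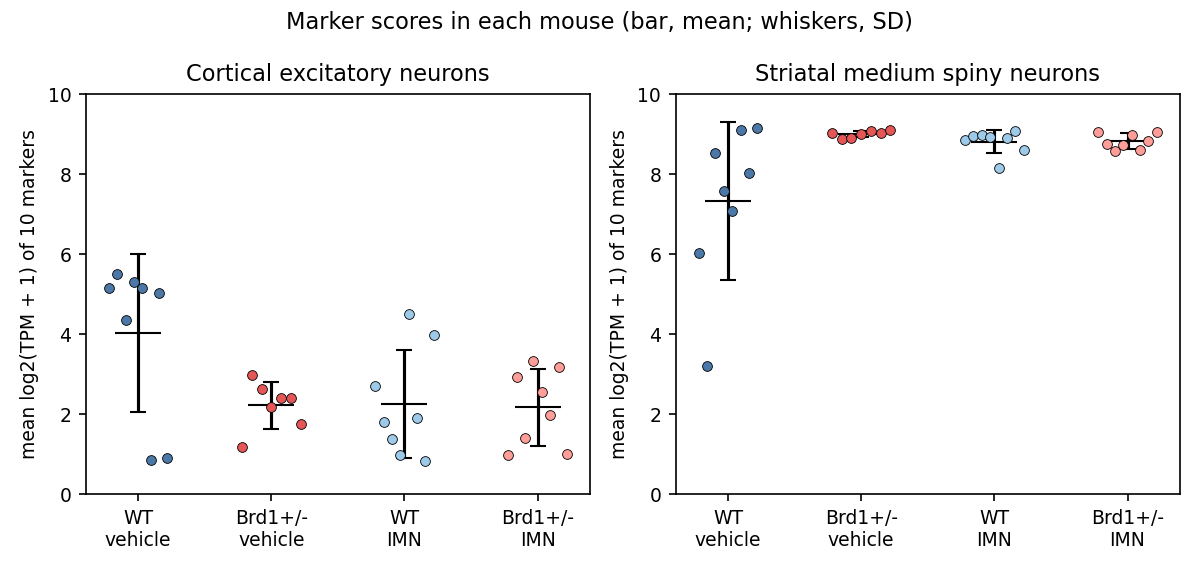
Mean log2(TPM + 1) of 10 markers of cortical excitatory neurons (left) and of 10 markers of striatal medium spiny neurons (right) in each mouse (points) of the 4 groups, with mean (bar) and SD (whiskers). In all, 6 of 8 WT vehicle mice lie above every Brd1+/- mouse in the left panel.

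**Figure D3:**
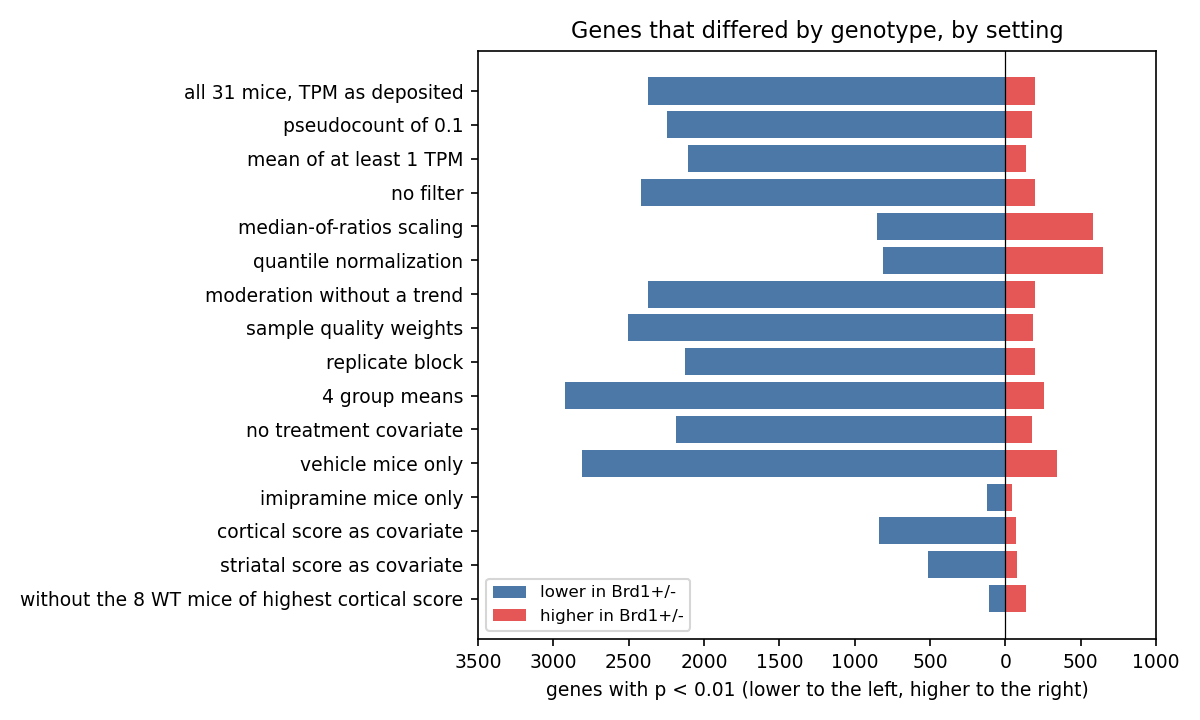
Number of genes with p under 0.01 (x axis, lower in Brd1+/- to the left and higher to the right) in each setting of the fit (y axis). The 2566 genes of the first bar compare with 904 and 589 when the cortical or striatal score is a covariate and with 250 without the 8 WT mice.

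Holding the cortical score as a covariate, 904 genes (3.56%) had p under 0.01, and 3 passed the FDR of 5%, namely Brd1, Fxyd7 and Mapk12. Fxyd7, a brain regulator of the Na,K-ATPase, was at 162 ± 107 TPM (SD) in WT and 65.2 ± 14.0 TPM in Brd1+/- mice, and its log2 fold change was −1.02 in all mice and −0.22 without the 8 WT mice (limma, adjusted p = 0.929). Mapk12, which encodes the stress kinase p38 gamma and lies on the chromosome of Brd1 at chr15:89130584-89140703, was at 3.65 ± 2.64 TPM in WT and 1.20 ± 0.436 TPM in Brd1+/- mice, with −0.87 in all mice and −0.17 without the 8 (limma, adjusted p = 0.929). Both were picked out here after their values were seen. With the striatal score as covariate, 589 genes (2.32%) had p under 0.01 and Brd1 alone passed the FDR. The log2 fold change of Brd1 was −0.60 with the cortical score, −0.63 with the striatal score and −0.54 without the 8 mice. Of the 2566 genes with p under 0.01 in the fit of TPM as deposited, out of 25394 tested, 303 also had it in 4 other fits. These were the fits after each rescaling and with each covariate, and 257 of the 303 were lower and 46 higher. All of these fits use the same mice, so the count is a description and not repeated support.

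The 10 genes with the smallest p among those lower in Brd1+/- mice, with a symbol and a mean of at least 1 TPM, were led by Brd1. The others were Jpt1, Klhl21, Gm9836, Ero1lb, Gm42829, Stau2, Matk, 1500009L16Rik and Rab35, all with an adjusted p of 0.0625 (limma). Jpt1 encodes a small microtubule-associated protein, Klhl21 a substrate adaptor of cullin ubiquitin ligases and Ero1lb an oxidase that supplies disulfide bonds in the endoplasmic reticulum. Stau2, a double-stranded RNA-binding protein that carries mRNA into dendrites, was at 78.3, 96.6 and 104 TPM (lowest, median and highest) in WT vehicle mice and 60.9, 72.4 and 86.4 TPM in Brd1+/- vehicle mice. Under IMN it was at 72.6, 82.4 and 92.5 TPM in WT and 53.5, 69.4 and 82.5 TPM in Brd1+/- mice, so that 10 of 15 Brd1+/- mice were below every WT mouse. Its log2 fold change was −0.30 (SE 0.06). Matk, a kinase that phosphorylates the inhibitory tail of Src family kinases, was at 72.0, 96.3 and 121 TPM in WT vehicle, 65.1, 73.3 and 90.7 TPM in Brd1+/- vehicle, 83.4, 89.4 and 106 TPM in WT IMN and 60.4, 75.5 and 86.2 TPM in Brd1+/- IMN mice. The groups overlapped in both treatments, and 7 Brd1+/- mice lay below every WT mouse, with a log2 fold change of −0.33 (SE 0.07). Rab35, a GTPase of endosomal recycling, was at 40.7, 54.7 and 65.1 TPM in WT vehicle and 37.6, 40.2 and 42.9 TPM in Brd1+/- vehicle mice, while WT IMN mice were at 38.4, 40.02 and 48.8 TPM and Brd1+/- IMN mice at 34.7, 37.4 and 40.2 TPM. Its difference was −0.41 under vehicle and −0.15 under IMN (limma interaction, adjusted p = 0.266). Jpt1 and Klhl21 behaved alike in this respect, with −0.67 and −0.54 under vehicle and −0.29 and −0.23 under IMN. Without the 8 WT mice of high cortical score, Matk (−0.27), Gm9836 (−0.14) and 1500009L16Rik (−0.29) had p under 0.01, with an adjusted p of 0.899 (limma), and the other 6 were negative without reaching it.

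Genes higher in Brd1+/- mice were fewer and included mitochondrial transcripts. Among those with a symbol and a mean of at least 1 TPM, the 10 with the smallest p were Gm4076, Gm11407, Trim17, Meis1, Cabcoco1, Arhgdib, mt-Nd5, mt-Nd4l, Gm10222 and Wnt8b, with adjusted p from 0.0707 to 0.071. Meis1, a homeodomain factor of developing striatum and other tissues, was at 0.378, 3.02 and 5.19 TPM in WT vehicle mice and 4.30, 6.03 and 7.35 TPM in Brd1+/- vehicle mice. Under IMN it was at 2.71, 3.94 and 4.87 TPM in WT and 2.62, 6.25 and 9.33 TPM in Brd1+/- mice, and 11 of 15 Brd1+/- mice lay above every WT mouse. The log2 fold change of Meis1 was 0.65 (SE 0.18), and 0.27 without the 8 mice (limma, adjusted p = 0.929). Trim17, a ubiquitin ligase of neurons, rose from 5.72 ± 1.15 TPM (SD, n = 16) to 7.20 ± 0.90 TPM (SD, n = 15), with 0.32 under vehicle and 0.27 under IMN, and 0.13 without the 8 mice (limma, adjusted p = 0.929). Arhgdib, an inhibitor of small GTPase cycling, was at 10.1 to 93.3 TPM in WT vehicle mice and 60.6 to 95.5 TPM in Brd1+/- vehicle mice, with a log2 fold change of 1.27 under vehicle and 0.39 under IMN, and of 0.81 pooled but 0.14 without the 8 mice (limma, adjusted p = 0.940). Wnt8b, a Wnt ligand, was at a mean of 0.593 TPM in WT and 1.74 TPM in Brd1+/- mice (log2 fold change 0.70), and Cabcoco1, a calcium-binding coiled-coil protein, had 0.47. Gm4076 and Gm11407 are processed pseudogenes and Gm10222 is a copy of mitochondrial sequence, so their reads may be shared with other genes and their values are uncertain. Of these 10 genes Gm4076 alone had p under 0.01 without the 8 mice (0.23, limma, adjusted p = 0.899).

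Fitted in each treatment alone, with no mice in common, genotype was associated with p under 0.01 in 3153 of 23200 genes (13.6%) under vehicle and 164 of 23339 genes (0.703%) under IMN. Of 3112 genes called under vehicle and tested in both, 2496 (80.2%) had the same direction under IMN, beside 61.6% of all genes tested in both, and 112 (3.60%) also had p under 0.05 there in that direction, beside 2.63% of all, where 3.92% of genes tested under IMN had p under 0.05 in either direction. Among those lower under vehicle 82.6% were also lower under IMN, where 63.7% of all genes were lower, and among those higher 60.5% were also higher. Of 156 genes called under IMN, 101 (64.7%) had the same direction under vehicle, beside the same 61.6% of all genes, and 26 (16.7%) had p under 0.05 there in that direction, beside 23.0% of all. Among those lower under IMN 70.4% were also lower under vehicle, where 72.9% of all genes were lower, and among those higher 48.8% were also higher. After median-of-ratios scaling these shares were 63.0% beside 49.8% of all genes, and 66.7%, and p under 0.05 in the same direction was reached by 14.7% beside 15.3% of all. In the test of the difference between treatments, 951 of 25394 genes had an interaction p under 0.01 and 0 passed an FDR of 5% (limma).

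In 13 genes genotype had p under 0.01 in each treatment on its own, all with the same direction in both. They were 8.33% of the 156 genes called under IMN, below the 13.7% of all 22656 genes that were called under vehicle, so their number does not exceed the background and they are given as a description. Of these, 11 were lower, namely Brd1, Matk, Stau2, Gm42829, Ltbp3, Fmnl1, Phf23, Tnnc1, Ero1lb, Sh3rf1 and Psmb10, and 2 were higher, Gm47266 and Hist1h4n. Phf23, a PHD finger protein that binds methylated histone H3 lysine and dampens autophagy, was at 23.4, 27.8 and 33.8 TPM in WT vehicle and 10.7, 19.1 and 28.5 TPM in Brd1+/- vehicle mice. Under IMN it was at 19.5, 23.9 and 35.3 TPM in WT and 7.98, 16.6 and 20.9 TPM in Brd1+/- mice. The log2 fold changes of Phf23 were −0.53 and −0.57, and −0.52 (limma, adjusted p = 0.899) without the 8 WT mice, while the groups overlapped in both treatments. Ltbp3 stores latent TGF-beta in the matrix, Fmnl1 nucleates actin filaments, Sh3rf1 is a scaffold of the JNK pathway and Psmb10 is a catalytic subunit of the immunoproteasome. Their pooled log2 fold changes were −0.47, −0.40, −0.41 and −0.89, and without the 8 mice −0.16, −0.16, −0.16 and −0.28 (limma, adjusted p from 0.913 to 0.929). Tnnc1, the calcium sensor of slow muscle troponin, had the largest of the 13 at −1.53 (SE 0.36), from 7.19 ± 7.25 TPM (SD) in WT and 1.12 ± 0.863 TPM in Brd1+/- mice, and −0.34 without the 8 mice (limma, adjusted p = 0.932). Gm47266 (0.38) and Hist1h4n, a histone H4 gene (0.33), were at means of 0.294 and 0.295 TPM in WT and 0.688 and 0.628 TPM in Brd1+/- mice, and both kept p under 0.01 without the 8 WT mice. Of the 13, Ltbp3, Fmnl1, Phf23, Tnnc1, Sh3rf1, Psmb10, Gm47266 and Hist1h4n were chosen by this double call after their values were seen.

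**Figure D4:**
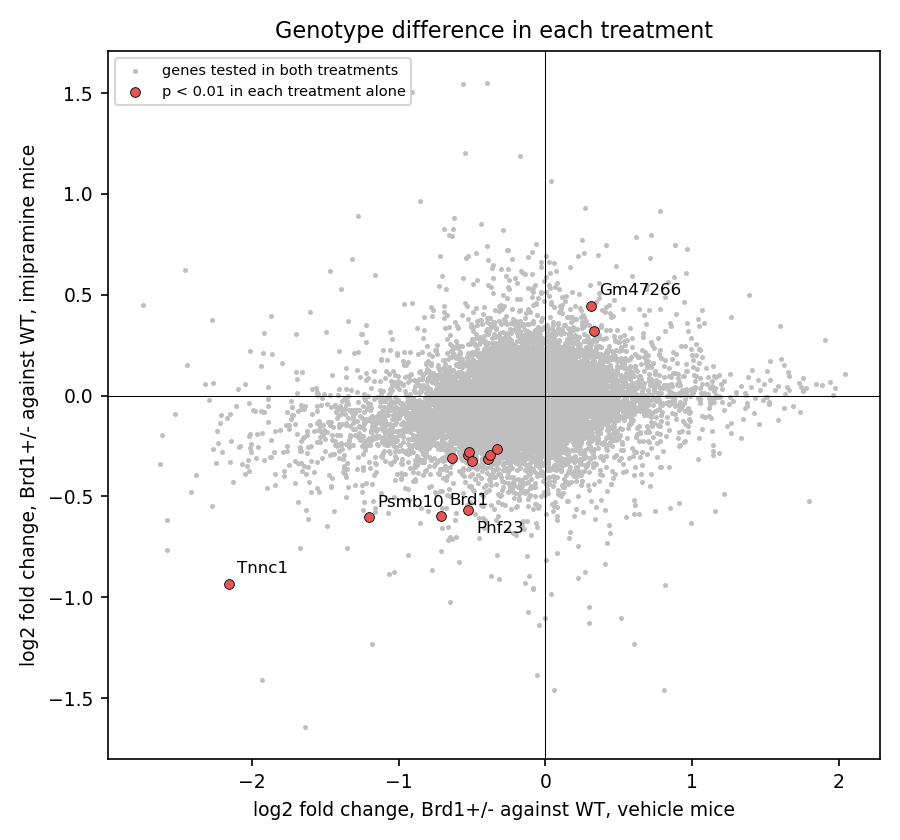
Log2 fold change of Brd1+/- against WT among vehicle administered mice (x axis) and among IMN administered mice (y axis) for the 22656 genes tested in both (grey), with the 13 genes at p under 0.01 in each treatment alone in red. All 13 lie in the lower left or upper right quadrant, and no mouse enters both axes.

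Immediate early genes are transcribed by neurons within minutes of activity or stress. Of 22 tested, 5 fell and 0 rose at p under 0.01 (22.7%, beside 10.1% of all genes), 21 had negative log2 fold changes, as had 71.9% of all genes, and the median was −0.20. After median-of-ratios scaling 3 were lower and the median was −0.08. Arc, a capsid-like protein that drives removal of AMPA receptors from synapses, was at 101, 199 and 313 TPM in WT vehicle mice and 81.0, 115 and 206 TPM in Brd1+/- vehicle mice. Under IMN it was at 66.6, 87.1 and 115 TPM in WT and 37.3, 58.4 and 73.4 TPM in Brd1+/- mice. The groups overlapped, and the log2 fold change of Arc was −0.66 under vehicle and −0.65 under IMN (limma interaction, adjusted p = 0.99), and −0.66 pooled (SE 0.14, limma, adjusted p = 0.0647). Without the 8 WT mice it was −0.39 (limma, adjusted p = 0.899). Ier5 (−0.54, or −0.05 without the 8 mice), the AP-1 subunit Fos (−0.86), the zinc finger factor Egr3 (−0.37) and Dusp1, a phosphatase of MAP kinases (−0.35), also fell. Fos was at 5.88, 21.9 and 63.7 TPM in WT vehicle and 4.82, 8.45 and 16.9 TPM in Brd1+/- vehicle mice, and its fold change without the 8 mice was −0.21 (limma, adjusted p = 0.956). Egr3 kept p under 0.01 without them (−0.37, limma, adjusted p = 0.899), and 1 of the 22 genes was then lower and 0 higher.

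Promoters of the called genes that the RefSeq table on GRCm38.p6 covers are shown for Brd1 and for Fos and Dusp1, 2 activity-regulated genes lower in Brd1+/- mice, as the 250 bases before the annotated start, 5′ to 3′ on the strand of the gene. Of the 91 genes named, 62 had an entry. The letters TGACGTCA of the cAMP response element (CRE), which CREB binds, and its half-site TGACG were searched on both strands, where a full element holds 1 half-site on each strand, and matches are in capitals. The windows are chr15:88734220-88734469 (minus strand) for Brd1, chr12:85473640-85473889 (plus) for Fos and chr17:26508473-26508722 (minus) for Dusp1.
Brd1 promoter: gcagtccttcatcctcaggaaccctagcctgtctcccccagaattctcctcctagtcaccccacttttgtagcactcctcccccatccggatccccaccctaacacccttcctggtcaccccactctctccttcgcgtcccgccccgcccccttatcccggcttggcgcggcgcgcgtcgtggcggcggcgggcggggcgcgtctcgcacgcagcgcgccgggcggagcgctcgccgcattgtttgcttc
Fos promoter: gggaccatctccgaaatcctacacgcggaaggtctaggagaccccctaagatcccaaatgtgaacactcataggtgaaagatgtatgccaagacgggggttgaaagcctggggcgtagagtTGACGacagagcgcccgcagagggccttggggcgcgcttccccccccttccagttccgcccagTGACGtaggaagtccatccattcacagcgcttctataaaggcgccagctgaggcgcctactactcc
Dusp1 promoter: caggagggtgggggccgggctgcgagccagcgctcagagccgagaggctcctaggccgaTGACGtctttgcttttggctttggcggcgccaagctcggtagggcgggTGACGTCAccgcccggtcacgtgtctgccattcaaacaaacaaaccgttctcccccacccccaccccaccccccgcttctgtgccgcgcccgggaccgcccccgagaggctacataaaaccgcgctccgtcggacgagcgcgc
Fos held 2 half-sites and 0 full elements, Dusp1 held 1 full element and 3 half-sites, 2 of them within the element, and Brd1 held 0 of either. The window of Ier5, another immediate early gene that fell, also held 0 of either. Over 32851 windows of the same length, 1.55% held the full element and 17.8% a half-site, and of the 62 windows of named genes 4 (6.45%) held the full element and 18 (29%) a half-site. Among the first genes of the lower list Jpt1 and Klhl21 held 1 half-site each and Rab35 and Matk held 0. The windows shown were chosen with these matches known. A match of letters is not a bound site, and no binding was measured here.

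Genes of the unfolded protein response and of cholesterol synthesis held the largest shares of lower genes among the pathway lists. Of 23 unfolded protein response genes, 9 fell and 0 rose (39.1%, beside 10.1% of all genes), with a median of −0.19. They included Pdia6, a disulfide isomerase (−0.33), the co-chaperones Dnajb11 (−0.24) and Dnajc3 (−0.28), and Ddit3, the stress factor CHOP (−0.19). Pdia6 was at 54.6, 75.2 and 78.5 TPM in WT vehicle, 47.4, 52.3 and 65.3 TPM in Brd1+/- vehicle, 41.0, 58.0 and 75.5 TPM in WT IMN and 36.9, 48.4 and 62.7 TPM in Brd1+/- IMN mice. All 23 cholesterol synthesis genes had negative log2 fold changes with a median of −0.28, and 6 fell, among them Fdft1, the squalene synthase (−0.32), Nsdhl (−0.33), Pmvk (−0.36) and Hsd17b7 (−0.35). After median-of-ratios scaling 1 gene of each list was lower, with medians of −0.08 and −0.17. Without the 8 WT mice 0 genes of either list had p under 0.01, and the medians were −0.08 for the unfolded protein response and 0.07 for cholesterol synthesis.

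Shares called in the signaling lists ranged from 0 to 28.6%, beside 10.1% of all genes. Of 29 G protein subunit genes (20.7% called) 5 fell, with Gng13 first (−0.60, SE 0.13, limma, adjusted p = 0.0647), then Gnaz (−0.36) and Gng3 (−0.51), and 1 rose, Gnb5 (0.29), which was 0.61 under vehicle and −0.01 under IMN (limma interaction, adjusted p = 0.261). Gng13 was at 61.0, 102 and 159 TPM in WT vehicle, 40.7, 48.4 and 62.9 TPM in Brd1+/- vehicle, 54.6, 65.9 and 90.7 TPM in WT IMN and 39.4, 50.5 and 74.7 TPM in Brd1+/- IMN mice, with 10 of 15 Brd1+/- mice below every WT mouse. Of 35 genes of cAMP and protein kinase A signaling (20% called) 6 fell, including the kinase subunits Prkaca (−0.23) and Prkar1b (−0.69) and the phosphodiesterase Pde4a (−0.47), and 1 rose, the anchoring protein Akap9 (0.44). Of 21 serotonin and adrenergic receptor genes (28.6% called) 5 fell, with Htr3a at −0.54, Adra1d at −1.17 and Htr5a at −0.54, and Adra2b rose by 0.13 from a mean of 0.262 TPM in WT. Of 27 ionotropic glutamate and GABA-A receptor subunits (14.8% called) 4 fell, among them Grin2d (−0.36) and Gabra3 (−0.76), and 0 rose. Medians of these 4 lists were −0.12 for G proteins, −0.05 for cAMP, −0.23 for the receptors of serotonin and adrenaline and −0.08 for the ionotropic receptors, and after median-of-ratios scaling −0.01, 0.06, −0.17 and 0.03. That scaling left 3 lower and 1 higher among G protein genes, 3 lower and 2 higher in the cAMP list, 4 lower and 1 higher among the receptors of serotonin and adrenaline, and 1 lower and 2 higher among the ionotropic receptors, where the balance of calls turned. Of 19 neurotrophic genes, with a median of −0.09 and 5.26% called, Bdnf fell (−1.09), from 0.0625, 6.90 and 14.5 TPM in WT vehicle mice to 0.14, 0.514 and 1.20 TPM in Brd1+/- vehicle mice, while the medians under IMN were 0.284 TPM in WT and 0.326 TPM in Brd1+/- mice. Of 21 genes of dopamine synthesis, transport and signaling, 0 passed p under 0.01 and the median was 0.67. Of these, 17 were positive and 4 negative, where 71.9% of all genes were negative. Without the 8 WT mice, Gng3, Prkar1b, Pde4a, Adra1d, Htr5a, Gabra3 and Bdnf turned positive at 0.02 to 0.29, the median of the dopamine list was −0.08, 0 G protein and 0 neurotrophic genes had p under 0.01, and 1 gene each of the cAMP, receptor and ionotropic lists was higher and 0 lower.

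Shares called among chromatin and nuclear receptor genes were near that of all genes. Of 36 other acetyltransferases, deacetylases and bromodomain readers 5 fell, the deacetylase genes Hdac5 (−0.27), Hdac1 (−0.36), Hdac8 (−0.21), Hdac10 (−0.45) and Hdac9 (−0.59), and 0 rose, with a median of −0.12 (13.9% called, beside 10.1% of all genes). Hdac5 was −0.28 under vehicle and −0.25 under IMN, from 120 ± 19.3 TPM (SD) in WT and 99.6 ± 17.9 TPM in Brd1+/- mice. Hdac10 was −0.94 under vehicle and 0.00 under IMN (limma interaction, adjusted p = 0.261). Of 31 nuclear hormone receptor genes 4 fell, the retinoic acid receptor Rara (−0.91), the thyroid hormone receptor Thra (−0.23), Nr2c1 (−0.19) and Rorb (−0.28), and 0 rose, with a median of −0.08 (12.9% called). After median-of-ratios scaling 2 of the 36 genes were lower, 1 nuclear receptor gene was lower and 1 higher, and the medians of these lists were −0.01 and 0.00, and without the 8 WT mice 0.02 and 0.03. Of 20 glucocorticoid-responsive genes 0 were called and the median was −0.11, or 0.00 after median-of-ratios scaling. Without the 8 WT mice 0 genes of these 3 lists were called in either direction, and Rara was then at 0.12.

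Of genes for the enzymes of respiration, some mitochondrial transcripts rose and some nuclear genes fell. All 13 protein genes of the mitochondrial genome had positive log2 fold changes with a median of 0.20. Of them 3 rose and 0 fell (23.1% called, beside 10.1% of all genes called in either direction and 0.776% called higher). These were mt-Nd5 (0.32), mt-Nd4l (0.34) and mt-Nd6 (0.26), subunits of complex I. In vehicle administered mice mt-Nd5 was at 6517, 9604 and 11992 TPM in WT (lowest, median and highest) and 10524, 13633 and 15526 TPM in Brd1+/- mice. Of 77 nuclear genes of oxidative phosphorylation 7 fell, with Ndufb6 (−0.28), Cox6c (−0.36), Uqcrfs1 (−0.17) and Ndufa2 (−0.23) first, 0 rose, and 72 were negative with a median of −0.13. The share called, 9.09%, was below the 10.1% of all genes. Of 78 cytosolic ribosomal protein genes 5 fell, among them Rps28 (−0.21), Rpl11 (−0.20) and Rpl37a (−0.19), with a median of −0.10 and a share called, 6.41%, also below that of all genes. With the 8 WT mice left out, 0 genes of these 3 lists were called, the mitochondrial median was 0.00 with 6 of 13 genes negative, and the nuclear and ribosomal medians were −0.03 and −0.04. In IMN mice alone the 3 medians were 0.04, −0.02 and −0.01, with 0 called. After median-of-ratios scaling 3 mitochondrial genes were higher, 1 nuclear gene was lower and 0 ribosomal genes were called, with medians of 0.32, −0.01 and 0.01. With either marker score as a covariate 3 mitochondrial genes were higher and 0 ribosomal genes were called. Quantile normalization, which gives the most abundant transcripts of every mouse the same values, put the mitochondrial median at 0.01. Of 17 clock genes (17.6% called) Nfil3 fell (−0.53) and the PAR bZIP factors Tef (0.24) and Dbp (0.47) rose, the latter at −0.04 without the 8 WT mice. The median of the clock list was 0.03, or 0.14 after median-of-ratios scaling and −0.03 without the 8 WT mice, when 0 were called.

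The share called among neighbors of Brd1 was close to that of all genes. Of the 10 nearest protein-coding genes on each side, 18 of 20 were tested and 2 fell (11.1%, beside 10.1% of all genes), Cerk, which makes ceramide 1-phosphate (−0.35), and Pkdrej (−0.15, from a mean of 0.297 TPM in WT). Of the 18, 17 had negative log2 fold changes, as had 71.9% of all genes, and the median was −0.15, beside −0.07 over all genes. After median-of-ratios scaling the median was −0.06 and 0 were called, as with either marker score as a covariate. Without the 8 WT mice Cerk and Pkdrej were at 0.03 and 0.02 and 0 of the 18 were called.

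**Figure D5:**
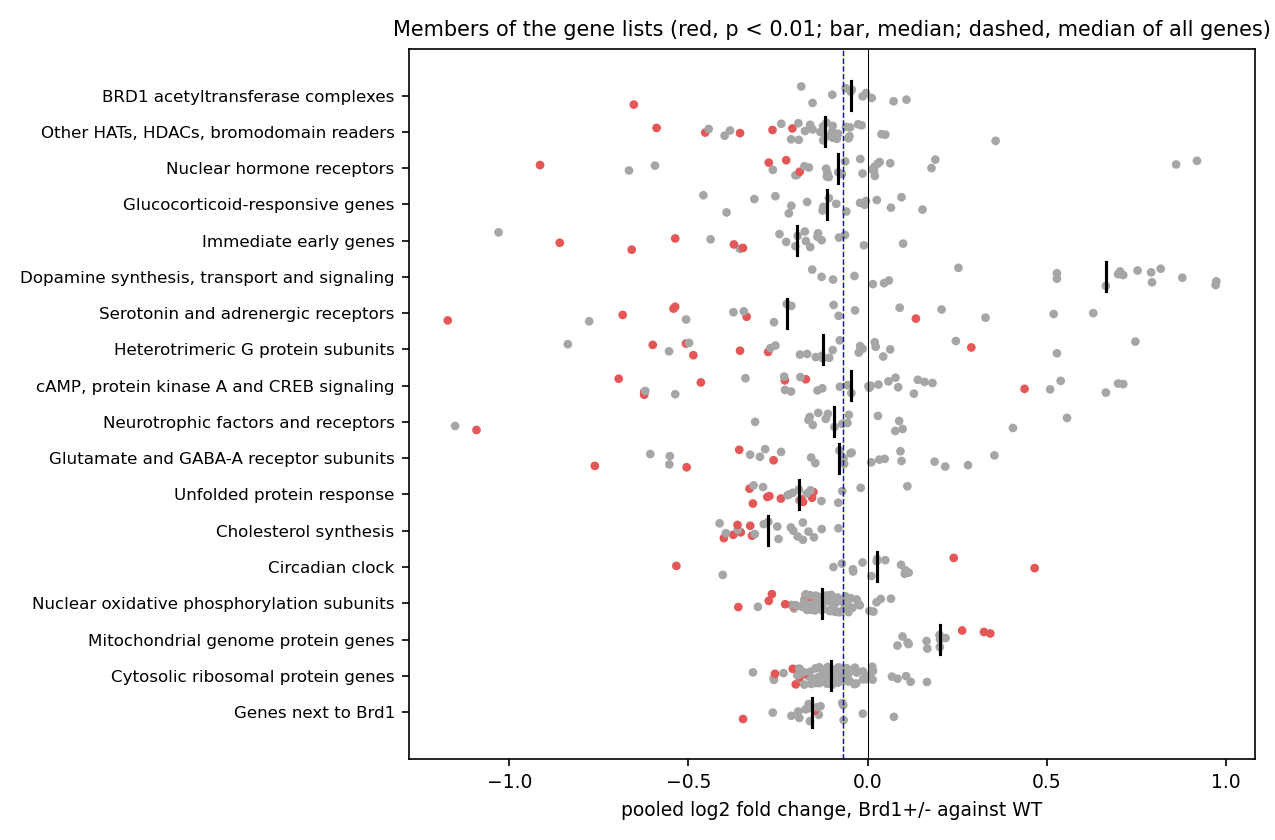
Pooled log2 fold change of Brd1+/- against WT (x axis) of every tested member (points, red at p under 0.01) of 18 gene lists (y axis), with the median of each list (bar) and of all genes at −0.07 (dashed line). Brd1 is the leftmost point of the first list, and the 13 mitochondrial genome genes all lie above 0.

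Which markers of other cell types were called differed with the scaling. Of 7 interneuron genes Npy (−0.31) and Sst (−0.26) fell (28.6% called, beside 10.1% of all genes). They were at 0.02 and 0.00 without the 8 WT mice, and the score of the list differed by 0.05 (exact permutation test, p = 0.587). Of 8 astrocyte, 8 oligodendrocyte, 8 microglia, 9 endothelial and mural, 5 choroid plexus and ependymal and 5 erythrocyte genes tested, 0 passed p under 0.01 in either direction. After median-of-ratios scaling 0 interneuron genes were called, while 2 of 8 microglia, 3 of 9 endothelial and mural and 4 of 5 erythrocyte genes were higher. Over all genes, 582 of 25394 were higher with that scaling. Scores of endothelial and mural cells and of erythrocytes differed by 0.08 and 0.31 (exact permutation tests, adjusted p = 0.115 for both). After median-of-ratios scaling they differed by 0.193 and 0.415, and that of microglia by 0.161 (exact permutation tests, adjusted p = 0.00436, 0.0294 and 0.0294).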

How the data were processed

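CPu punches of 31 mice were sequenced (BGISEQ-500, single-end). Reads were aligned by the authors to GRCm38 (Ensembl) with HISAT2 2.1.0 and genes quantified with StringTie 1.3.4, with FastQC and Trimmomatic in the submitters' processing notes, and the authors deposited TPM for 52636 identifiers. Mouse sums run from 999787 to 999918, the number of reads of each mouse is not given beyond a minimum in the methods, and precision rests on the spread between mice. Symbols and positions came from GENCODE M21 (GRCm38). 0 columns were left unused.

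Genotype was fitted with treatment in limma 3.58.1 (R 4.3.3) on log2(TPM + 1) with a trended prior variance, two-sided, for genes above 0.1 TPM in at least 7 mice, with Benjamini-Hochberg adjustment over all genes. Fold changes on this scale understate low genes. Thresholds were p under 0.01 and an FDR of 5%. The fit was also run on simulated data with known differences. These had independent noise and the same spread in every group, unlike the marker scores here, so they do not test that case. The edgeR test the authors used needs counts and was not run. Within-treatment fits used the same test and interactions a term over all mice. Marker scores and Brd1 were tested by exact permutation of genotype within treatment. Marker levels, cortical score as a covariate and rescaling were among the alternatives.

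Named genes were Brd1 and its complexes, the 10 with the smallest p in each direction with a symbol and a mean of at least 1 TPM, up to 4 of each list with p under 0.01 (some genes of the lists are not reported here), neighbors of Brd1 with p under 0.01, and markers, besides those said to be chosen after their values were seen. Hdac9 and Dusp1, beyond the 4 of their lists, were also chosen so. Members, lists and tests were chosen with earlier results of these data known. Litters were not given in the labels, so mice count as independent.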

Additional observations from a re-analysis of the deposited data

Results flagged for a closer look

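Of 372 checks, 93 measures in each of the 4 groups, 22 found a mouse set apart from the rest of its group, where chance marks about 1 in 20. In TPM these were Adra1d 38.0, Grin2d 11.0 and Neurod1 12.1 in WT vehicle mouse 2, the mouse with the highest cortical marker score of all; Wnt8b 2.02, Pdia6 54.6, Hist1h4n 0.835 and Mir124a-3 2.57 in WT vehicle mouse 8; and Hdac10 8.12, Htr3a 2.53, Gng3 277 and Grin2d 5.04 in WT IMN mouse 5. Others were Ing4 9.498 in WT IMN mouse 1, Hdac8 10.9 and Phf23 35.3 in WT IMN mouse 8, Prkaca 98.9 in Brd1+/- IMN mouse 1, Psmb10 20.1 in mouse 2, Kat7 43.5 in mouse 3, Htr5a 3.94 and Bdnf 1.08 in mouse 4, and Dnajb11 40.8, Tef 142 and Fmnl1 67.3 in mouse 7 of that group. The cause was not tested.

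Outside the comparisons, WT vehicle mouse 7 had a summed level of 26.8 TPM for 4 Y-linked genes (Ddx3y, Eif2s3y, Kdm5d and Uty), where the highest of the other mice had 0.188 TPM, although all mice are labelled female. Without this mouse the cortical marker score differed by −0.88 and the striatal one by 0.89 between genotypes.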

How the results depend on the processing

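Genes at p under 0.01 numbered 1431 after median-of-ratios scaling, 1461 after quantile normalization, 164 in IMN mice alone, 904 and 589 with the cortical and striatal covariates and 250 without the 8 WT mice (chosen after seeing the data), and 1811 to 3681 with each mouse left out. Genes under an FDR of 5% numbered 21 at a mean of at least 1 TPM, 419 with sample weights, 1505 with 4 group means, 0 in vehicle mice alone (3153 at p under 0.01, limma), 3 with the cortical covariate, 2 without the 8 WT mice, and 1 to 2653 with each mouse left out. Brd1 was −0.71 (adjusted p = 0.0556) in vehicle mice alone and −0.68 to −0.63 with each mouse left out, always under the FDR of 5%. Of 83 other named genes at p under 0.01, 63 kept it whichever mouse was left out, and the other 20, Hdac9, Thra, Nr2c1, Rorb, Egr3, Dusp1, Gnb5, Gabra3, Hsd17b7, Tef, Dbp, Uqcrfs1, Ndufa2, Rps28, Rpl11, Rpl37a, Pkdrej, Fezf2, Neurod1 and Sst, reached a p of up to 0.0197. Genes under vehicle with the same direction under IMN numbered 1526 of 2094 (72.9%, beside 55.8% of all genes) after median-of-ratios scaling.

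After that scaling Kat7, Kat6a and Kat6b were at 0.0513, 0.0615 and 0.0672, and after quantile normalization at 0.0537, 0.0733 and 0.0767. Ing4 was −0.172 in vehicle mice, Kat6b 0.121 and Gnb5 −0.0129 in IMN mice, and Kat6b 0.00201 with the cortical covariate. Without the 8 WT mice the sign turned for Meaf6 (0.0145), Brpf1 (0.0706), Kat7 (0.0072), Kat6a (0.0411), Kat6b (0.119), Rara (0.119), Adra1d (0.0768), Htr5a (0.0733), Gng3 (0.0441), Prkar1b (0.0429), Pde4a (0.0165), Bdnf (0.253), Gabra3 (0.286), Nsdhl (0.01998), Pmvk (0.0394), Dbp (−0.0422), Cerk (0.0268), Pkdrej (0.0182), Npy (0.0187) and Sst (0.00488). It also turned for Fezf2 (0.333) and Neurod1 (0.056), which are members of the score by which those WT mice were left out, so that their values there follow from the choice of mice. The other sign changes were seen in the same fit, where only WT mice were left out and the cortical marker list had a median of 0.80. Marker scores after median-of-ratios scaling differed by 0.0069 for astrocytes, 0.0481 for oligodendrocytes, 0.955 for striatal neurons, 0.161 for microglia, 0.193 for endothelium and 0.415 for erythrocytes, the last 4 with adjusted p of 0.0294, 0.0294, 0.00436 and 0.0294 (exact permutation tests). The causes were not tested.

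With the mouse number as a replicate block, 2323 genes had p under 0.01 and Brd1 alone passed the FDR of 5%. The numbers do not pair the mice: 9 of 45 same-numbered pairs had correlated deviations over 0.1 (mean 0.02), and 4 of 31 mice matched their own number best. Depth is unknown from TPM and sets no limit that could be given here.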
